A study of Mus musculus with 3 samples.

Results

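Cycling epithelial cells of doxycycline-treated adult mouse cochlear explants were described from single-cell RNA counts. A cell was counted as epithelial with at least 1 unique molecular identifier (UMI, which marks 1 captured RNA molecule) of Epcam, an epithelial adhesion molecule. It was counted as cycling with at least 1 UMI of at least 3 of 5 genes of dividing cells, Mki67, Top2a, Cdk1, Rrm2 and Hells. Cells also needed at least 200 genes, 5000 UMIs and 1 to 20% mitochondrial UMIs. These criteria found 387 cycling cells, 104 in Dox replicate 1 and 283 in Dox replicate 2, among 661 epithelial cells that passed the filters in these libraries and 2395 barcodes in the whole series. The non-cycling cells set against them were the 41 and 83 epithelial cells of the same libraries with 0 UMIs of all 5 genes. The remaining 36 and 114 epithelial cells had 1 or 2 of the 5 genes and entered no test.

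The Dox groups were cochlear explants of mice carrying rtTA, tet-on-Myc and tet-on-NICD, treated with doxycycline (Dox) at 2 µg/ml for 4 days, and the control explants, of the same genotype, received sterile water. Mice were 4 to 6 weeks old. In this system rtTA, a transcription factor that needs Dox, switches on Myc and the Notch intracellular domain (NICD), the fragment of the Notch receptor that enters the nucleus. The labels do not say which promoter drives rtTA. Each of the 3 libraries (2 Dox, 1 control) pooled 4 cultures and was made from trypsin-dissociated sensory epithelium. The series is titled for the reprogramming of cochlear supporting cells, the epithelial cells around the sensory hair cells. No Dox-treated cultures without the transgenes were analysed here, so the drug and the transgenes cannot be told apart.

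Dividing cells copy their DNA in S phase, using helicases, polymerases and newly made histones, and then separate the copies in mitosis with kinetochores and a spindle. Entry into this cycle depends on cyclin-dependent kinases, which are held back by inhibitors such as p27 (Cdkn1b). It also depends on E2F transcription factors, which switch on S phase genes. In the mammalian cochlea, hair cells and supporting cells leave the cycle before birth and p27 is kept on in supporting cells, so dividing epithelial cells are rare in the adult organ. MYC is known as a driver of ribosome production, nucleotide supply and cycle entry.

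The libraries held 788 and 1095 (Dox) and 512 (control) barcodes with 20309102, 33385927 and 5436731 UMIs. Some barcode sequences occurred in more than 1 library: 68 were shared by both Dox libraries, 101 by Dox replicate 1 and the control and 92 by Dox replicate 2 and the control. In no shared pair did both libraries have 5000 UMIs or more, and the shallower partner had a median of 685 to 696 UMIs. Among cycling cells, 44 of 104 in Dox replicate 1, 19 of 283 in Dox replicate 2 and 2 of 2 in the control had a shared barcode, so results are also given without them. The cells carried epithelial genes in both states. Krt8, a keratin of simple epithelia, had 1129 and 1365 CPM (UMI counts scaled to a common library total) in cycling cells of Dox replicates 1 and 2, against 1433 and 1359 CPM in non-cycling cells, and Epcam had 1003 and 1051 CPM against 1216 and 1090 CPM. Krt18 (edgeR adjusted p = 0.0672), Krt8 (0.404), Cdh1 (0.0618) and Epcam (0.391) did not pass the test described below. The keratins and Cdh1, an adhesion molecule of epithelia, were present in both states, as the label of an epithelial cell needs. Paired values from here on are in the order Dox replicate 1, Dox replicate 2.

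Cycling cells made up 57.5% of epithelial cells in Dox replicate 1 (104 of 181, 95% Clopper-Pearson interval 49.9 to 64.8) and 59.0% in Dox replicate 2 (283 of 480, 54.4 to 63.4). In the control library the share was 5.00% (2 of 40, 0.611 to 16.9). Both Dox intervals lay above the control interval, but with 1 control library the difference has no test. The share depends on how deeply each cell was read. After every cell was thinned at random to 5000 UMIs, which left out no cell, 24.3% (44 cells) and 28.8% (138 cells) of Dox epithelial cells met the criteria, against 2.50% (1 cell) in the control. Median depth over all epithelial cells was 57890 and 43140 UMIs in the Dox libraries and 39390 UMIs in the control. Without shared barcodes the Dox shares were 45.8% (60 of 131) and 57.3% (264 of 461), and in the control none of 16 cells was cycling, a count of 0 that allows up to 18.8%. Intervals and limits of this kind cover counting error only. Free RNA in a droplet can give UMIs of these genes to a cell that does not express them, and its part in the shares was not tested.

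**Figure D1:**
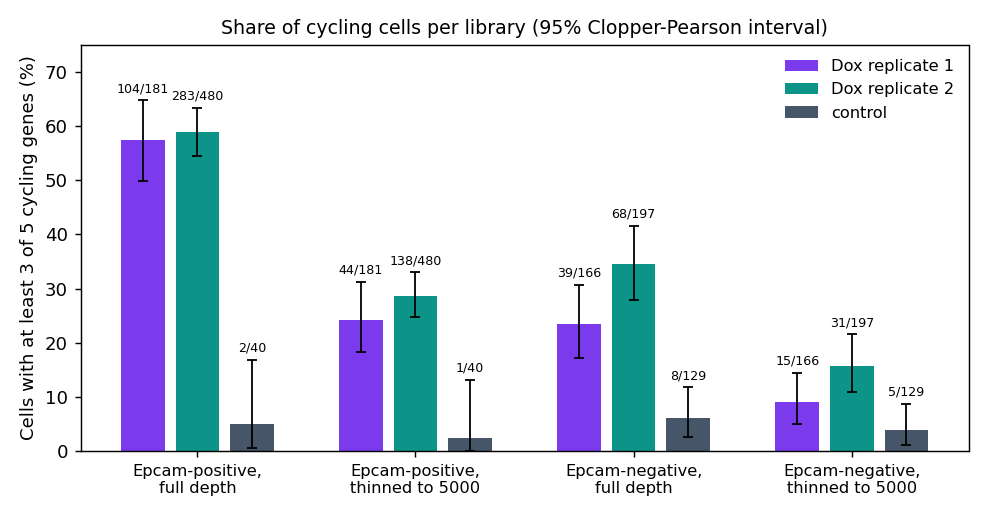
Share of cells with at least 3 of the 5 genes in each library, in percent, with 95% Clopper-Pearson intervals and cell numbers, for cells with and without an Epcam UMI, at full depth and after thinning to 5000 UMIs. The Dox bars (57.5% and 59.0% of Epcam-positive cells at full depth) stand above the control bar (5.00%), and every bar is lower after thinning.

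The criteria were also met by cells with no Epcam UMI. Among these, 23.5% (39 of 166) and 34.5% (68 of 197) were cycling in the Dox libraries, against 6.20% (8 of 129) in the control. After thinning the values were 9.04% and 15.7%, against 3.88% in the control. In both Dox libraries the epithelial share was the higher one at both depths, and median depth was 32070 and 28080 UMIs in the Epcam-negative cells.

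The 5 genes that chose the members are described without a test. Mki67, which coats mitotic chromosomes, had 344 and 349 CPM before scaling in cycling cells, and Top2a, the topoisomerase that untangles replicated DNA, had 317 and 377 CPM. Hells, a chromatin-remodelling helicase, had 164 and 183 CPM. Cdk1, the kinase that starts mitosis, had 87.5 and 104 CPM. Rrm2, the regulated subunit of ribonucleotide reductase, was the lowest with 44.9 and 64.4 CPM and was found in 72 of 104 and 219 of 283 members, whereas Hells was found in 99 and 276. All 5 genes were found in 54 and 181 members, 4 in 36 and 64, and 3 in 14 and 38. Just outside the threshold, 14 and 52 cells had 2 of the genes. Members with 3 genes had a Top2a level of 32.1 and 81.2 CPM, and cells with 2 genes had 19.3 and 20.6 CPM, a smaller step in Dox replicate 1. For Mki67 the step was larger in Dox replicate 1, with 171.5 and 145.2 CPM in members with 3 genes and 51.2 and 57.9 CPM in cells with 2. Both genes help to set the threshold, so these steps are partly given by the criteria. Median depth moved with the number of genes found, at 46380 and 37400 UMIs in members with 3 genes and 74630 and 57080 UMIs in members with 5. Epcam-positive cells under 5000 UMIs numbered 34 and 64, of which 0 and 3 had 3 or more of the genes.

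The cycling cells as a group held RNAs of S phase and of G2 and mitosis, and no single cell was given a phase. Of each thinned cell's 5000 UMIs, the 77 genes of a DNA replication and S phase list took a median of 23 and 26 UMIs in cycling cells, against 4 and 4 UMIs in non-cycling cells. The 162 measured genes of a G2 and mitosis list took 88.5 and 94 UMIs, against 25 and 23 UMIs. Cells with 1 or 2 of the 5 genes stood close to the non-cycling cells, with 6 and 6 UMIs of the S phase list and 30 and 33.5 UMIs of the G2 and mitosis list. Within the cycling cells the central 80% of S phase totals ran from 7 to 42 UMIs in Dox replicate 1 and from 10 to 45 UMIs in Dox replicate 2, so single members differed widely. Mcm5, a subunit of the helicase loaded before S phase, was found in 23.1% and 20.9% of thinned cycling cells, and Ccnb1, the cyclin B1 that activates Cdk1 at mitosis, in 16.3% and 22.6%. The corresponding shares in non-cycling cells were 2.44% and 3.61% for each gene. Both genes were found together in 4.81% and 3.89% of cycling cells. Each gene was found in few thinned cells, so this share cannot tell whether they mark separate cells.

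**Figure D2:**
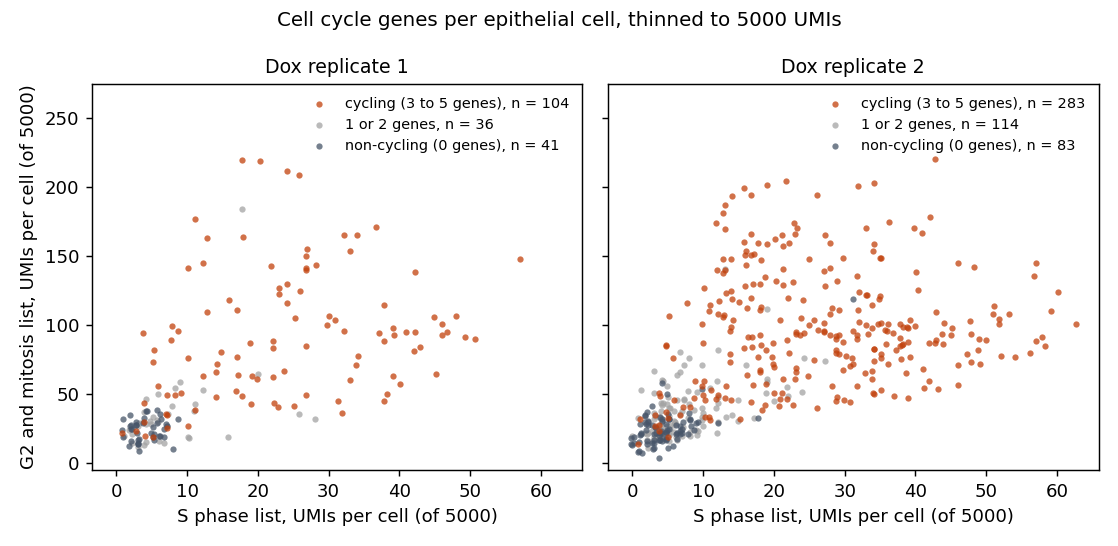
Each point is 1 epithelial cell thinned to 5000 UMIs. The horizontal axis gives its UMIs of the S phase list and the vertical axis its UMIs of the G2 and mitosis list, in Dox replicate 1 (left) and Dox replicate 2 (right). Cycling cells fan out along both axes, with medians of 23 and 26 UMIs for S phase, and non-cycling cells form a compact group near 4 UMIs.

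To see which epithelial cells were cycling, the 661 cells were clustered on genes outside the cell cycle lists, which gave 9 clusters at Leiden resolution 1. The leading genes named for each cluster are over all genes and identify it only. In a cluster led by Fabp7, Ppp1r1a, Rorb and Sox2, which held 8 of the supporting cell markers among its 25 leading genes and is called supporting cell-like, 4 of 29 cells (13.8%, 3.89 to 31.7) and 1 of 14 cells (7.14%, 0.181 to 33.9) were cycling. After thinning none of these 29 and 14 cells met the criteria, which allows shares of up to 10.3% and 21.4%. Median depth in this cluster was 48410 and 38980 UMIs, below the medians over all epithelial cells. Little Malat1, a nuclear RNA whose absence marks damaged or nucleus-free cells, was found in 34.5% and 14.3% of its cells. In the cluster led by Fxyd3, Rsph1 and Galnt7, where most cells were cycling, these shares were 40% and 14.5%, and in each other cluster they were at most 5.88%. The part of depth and RNA quality in the cluster's share was not tested. At the other end, 16 of 17 (94.1%) and 83 of 90 cells (92.2%) were cycling in a cluster led by Hist1h1b, Fut9 and Meis2. In a cluster led by Pclaf, Reg3g and Epyc, 31 of 35 (88.6%) and 57 of 63 cells (90.5%) were cycling. Cell cycle genes such as Top2a and Mki67 were still among the leading genes of these clusters, although the clustering did not use them.

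Other epithelial clusters lay between. In the cluster called interdental or spiral prominence epithelium-like, led by Fxyd3, Ceacam16 and Gabrp, 74.1% (20 of 27) and 48.1% (25 of 52) were cycling. Cells led by Fxyd3, Rsph1 and Galnt7 were cycling in 60.0% (12 of 20) and 69.1% (38 of 55). Those led by Vmo1 and Gpx3, which held the Reissner epithelium markers Vmo1 and Otx2, reached 45% (9 of 20) and 28.7% (25 of 87). The same 2 markers were among the 25 leading genes of the highly cycling cluster led by Hist1h1b. At resolution 0.5 the cluster led by Vmo1 and Gpx3 had 67.6% (25 of 37) and 61.3% (111 of 181) cycling cells, so these markers do not set apart cells of low share. A cluster led by Epyc, Lum and Igfbp5 was low in both libraries, at 25% (5 of 20) and 13.9% (5 of 36). Another, led by Epyc, Lum and Otogl, stood at 54.55% (6 of 11) and 38.1% (16 of 42). At resolution 0.5 a cluster called sulcus epithelium-like, led by Epyc, Lum and Pcdh17, had 64.6% (42 of 65) and 63.9% (76 of 119) cycling cells. Low shares in 1 cluster therefore do not describe all Epyc-marked cells. A cluster led by Cald1, Anxa1 and Basp1 lay almost wholly in Dox replicate 2, where 33 of 41 cells were cycling, with 2 cells in Dox replicate 1. Supporting cell-like cells therefore made up 3.85% and 0.353% of the cycling cells and 43.9% and 9.64% of the non-cycling cells, a difference in makeup that touches the gene comparison below.

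**Figure D3:**
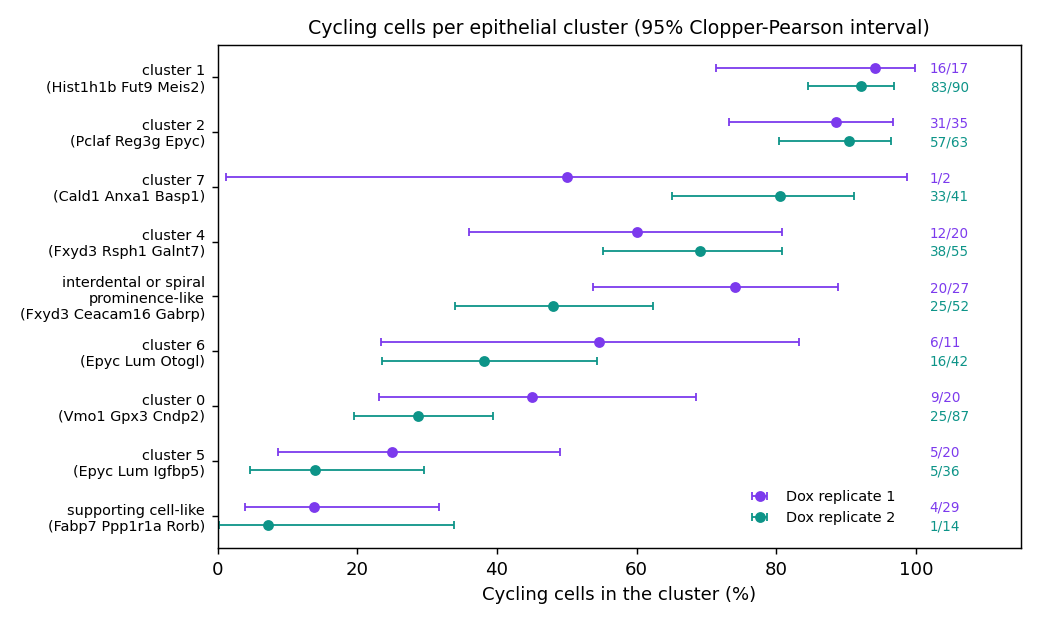
Share of cycling cells in each of the 9 epithelial clusters, in percent, with 95% Clopper-Pearson intervals and cell numbers, in both Dox libraries. The supporting cell-like cluster is lowest (13.8% and 7.14%), and the clusters led by Hist1h1b (94.1% and 92.2%) and by Pclaf (88.6% and 90.5%) are highest in both libraries.

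Gene levels were then compared between the states. UMI counts were summed over the cells of each state within each Dox library, which gave 9017439 and 18513231 UMIs in cycling cells and 1416494 and 2504322 UMIs in non-cycling cells. edgeR's quasi-likelihood test was run on the sums with the library as a block. Its p-values were adjusted over all tested genes by the Benjamini-Hochberg method, and calls were made at 0.05. CPM values below are scaled by the trimmed mean of M values (TMM) unless said otherwise. Of 11983 genes tested, 1742 were higher in cycling cells (14.5%) and 1479 were lower (12.3%), together 26.9%, and the median log2 fold change of all tested genes was -0.02. Each library pools cultures with no label of its own replicates. With the library as a block, p-values rest on how far the difference between the states varies between these 2 libraries. The estimate of that spread also draws on the other tested genes, and the spread may be technical. In 60.9% of tested genes both cycling sums lay on 1 side of both non-cycling sums.

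Genes of DNA replication were higher throughout. All 77 genes of the S phase list were called higher in cycling cells, and their median log2 fold change was 3.12 (3.08 and 3.43 within the libraries). Mcm6, a subunit of the replicative helicase, had 134 and 149 CPM in cycling cells, against 10.1 and 7.02 CPM in non-cycling cells (log2 fold change 4.12 ± 0.21 SE, edgeR adjusted p = 1.41e-09). Dtl, which marks the licensing factor Cdt1 for destruction, had 116 and 130 CPM against 4.34 and 9.36 CPM, and Esco2, an acetyltransferase of the cohesin ring that ties sister chromatids, had 58.7 and 68.9 CPM against 0.724 and 0.780 CPM. For these genes the states did not overlap. Because the cycle lists move with the genes that chose the cells, these counts describe the cells and are no separate finding.

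Genes of G2 and mitosis behaved alike, with 157 of 162 higher, 1 lower and a median log2 fold change of 3.70. Cenpf, a kinetochore protein, had 327 and 349 CPM in cycling cells against 1.45 and 7.02 CPM in non-cycling cells (log2 fold change 6.12 ± 0.21 SE, edgeR adjusted p = 3.82e-11). Nusap1, which bundles spindle microtubules, had 108 and 112 CPM against 0.724 and 0.780 CPM, and Hmmr, a spindle protein, had 164 and 168 CPM against 0.724 and 4.68 CPM. Tk2, a mitochondrial thymidine kinase that the list also holds, was the 1 member that fell, at 9.16 and 8.37 CPM against 27.5 and 15.6 CPM. Several members had no UMI in any non-cycling cell, so their fold is given as a bound against 3 UMIs over both libraries. Plk1, a kinase of mitotic entry and exit, had 1357 UMIs over the cycling cells and was at least 64.4-fold higher. Depdc1a, which takes part in mitosis, had 793 UMIs and was at least 37.7-fold higher, and Iqgap3, a scaffold protein, had 622 UMIs and was at least 29.5-fold higher. The DESeq2 Wald test called none of these 3 genes (adjusted p = 0.173, 0.237 and 0.274). Over all tested genes 52 had no UMI in the non-cycling cells, 29 of them on the cycle lists, and with such genes at their bound the median of the G2 and mitosis list was 3.57.

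Histone genes and regulators of S phase entry followed. Of 34 tested clustered histone genes 30 were higher and 2 lower (median log2 fold change 3.95, or 2.73 with genes at their bound), and Hist1h1b, a linker histone, had 243 and 585 CPM in cycling cells against 0 and 7.41 CPM in non-cycling cells. Most histone mRNAs end without a poly(A) tail, which this chemistry captures, and clustered copies are nearly identical, so single histone values are uncertain. Hist1h2bc and Hist3h2a were the members that fell. Of 32 genes of G1 to S control 26 were higher and 2 lower (median 1.84). E2f3, an activating E2F factor, had 84.7 and 88.9 CPM against 31.1 and 30.8 CPM, and E2f8, an E2F factor that represses, had 21.3 and 29.2 CPM against 0 and 0.390 CPM. Wee1, which holds Cdk1 back, had 44.1 and 51.9 CPM against 10.1 and 12.1 CPM. Ccnd2, the D-type cyclin of early G1, was lower, with 33.7 and 71.2 CPM against 78.9 and 140 CPM (log2 fold change -1.08 ± 0.14 SE, edgeR adjusted p = 4.61e-05). The states did not overlap, although the cycling sum of Dox replicate 2 came close to the non-cycling sum of Dox replicate 1.

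Promoters of some of these genes hold letters known for the factors that time them. E2F factors bind sites such as TTCCCGC or TTGGCGC, and genes of G2 and mitosis are known for the cell cycle homology region TTTGAA beside CCAAT boxes. The 250 bases before the start of 4 members are printed from RefSeq (GRCm38.p6), 5′ to 3′ on the gene's strand. Mcm6 stands for S phase, Cdk1 and Top2a are among the genes that chose the cells, and Depdc1a was not found in any non-cycling cell. Capitals mark the E2F motifs TTCCCGC and TTGGCGC, the homology region TTTGAA, the CCAAT box and the E-box CACGTG, which MYC can bind, on either strand. Read from the other strand the CCAAT box is ATTGG and the homology region is TTCAAA.
Mcm6, chr1:128359706-128359955, minus strand: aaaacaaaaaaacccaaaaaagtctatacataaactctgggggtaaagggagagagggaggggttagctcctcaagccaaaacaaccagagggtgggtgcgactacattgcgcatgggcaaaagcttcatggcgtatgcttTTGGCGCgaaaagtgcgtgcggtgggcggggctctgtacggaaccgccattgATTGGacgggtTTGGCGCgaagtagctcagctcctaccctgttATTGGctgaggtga
Cdk1, chr10:69352913-69353162, minus strand: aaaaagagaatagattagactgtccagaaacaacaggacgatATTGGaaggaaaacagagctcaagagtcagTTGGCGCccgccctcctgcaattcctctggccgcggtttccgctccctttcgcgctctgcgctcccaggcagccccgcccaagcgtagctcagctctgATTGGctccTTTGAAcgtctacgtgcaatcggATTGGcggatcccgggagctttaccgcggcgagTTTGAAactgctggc
Top2a, chr11:99024190-99024439, minus strand: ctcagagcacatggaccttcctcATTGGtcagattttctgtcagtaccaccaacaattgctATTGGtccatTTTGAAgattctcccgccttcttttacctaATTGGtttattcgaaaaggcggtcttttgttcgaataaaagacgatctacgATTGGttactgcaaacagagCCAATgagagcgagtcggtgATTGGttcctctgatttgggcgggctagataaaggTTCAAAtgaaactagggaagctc
Depdc1a, chr3:159495183-159495432, plus strand: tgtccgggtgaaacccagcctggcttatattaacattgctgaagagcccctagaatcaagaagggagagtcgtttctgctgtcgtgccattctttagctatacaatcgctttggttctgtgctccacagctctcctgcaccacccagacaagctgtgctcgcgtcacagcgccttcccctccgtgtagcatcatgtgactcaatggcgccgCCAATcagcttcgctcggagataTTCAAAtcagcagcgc
The Mcm6 window holds 2 TTGGCGC and 2 CCAAT matches and no TTTGAA. The Cdk1 window holds 1 TTGGCGC, 2 TTTGAA and 3 CCAAT matches, that of Top2a 2 TTTGAA and 6 CCAAT, and that of Depdc1a 1 of each. CCAAT read from the other strand shares letters with TTGGCGC, so the motifs can overlap. Among 22 promoters that the table holds for 20 named cycle genes, 77.3% held CCAAT, 36.4% held TTTGAA, 36.4% held either E2F motif and 4.55% held CACGTG. Those of Nusap1 and Chek1 held none of the motifs. Among the 11973 promoters of tested genes the shares were 35.5%, 10.3%, 10.1% and 8.44%, and among all 32851 RefSeq promoters they were 33.8%, 16%, 5.62% and 6.02%. The 68 promoters of the S phase list held either E2F motif in 27.9% and TTTGAA in 13.2%, and the 151 of the G2 and mitosis list held them in 16.6% and 31.8%. A match is a description of letters and shows no binding.

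Outside the cycle lists, inhibitors of the cycle were lower in cycling cells. Of 17 CDK inhibitor and quiescence genes 9 were lower and 1 higher (median log2 fold change -0.54). Cdkn1b (chr6:134920401-134925513, GRCm38), which encodes p27, had 75.5 and 59.2 CPM in cycling cells, against 243 and 117 CPM in non-cycling cells (log2 fold change -1.33 ± 0.16 SE, edgeR adjusted p = 1.65e-05). Every cycling sum was below every non-cycling sum. Ypel3, known as a growth suppressor, had 51.4 and 37.2 CPM against 130 and 85.8 CPM, and Btg2, an antiproliferative gene, had 412 and 595 CPM against 814 and 1059 CPM. Cdkn2c, which encodes the CDK inhibitor p18, went the other way, with 138 UMIs in cycling cells and 0 in non-cycling cells, at least 6.55-fold higher. Mxd4, which encodes an antagonist that competes with MYC for its partner MAX, had 47.4 and 44.3 CPM against 107 and 111 CPM (log2 fold change -1.26 ± 0.14 SE, edgeR adjusted p = 8.26e-06), again with no overlap. With comparators matched by cluster and depth 4 of 14 tested genes of the list were called lower, and the calls of Cdkn1b (edgeR adjusted p = 0.073), Btg2 (0.634) and Mxd4 (0.128) ended. Without the replicate block 1 of 17 was lower, and those of Cdkn1b (0.0513) and Btg2 (0.0518) ended.

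No rise was called for the transgene-related RNAs. Myc had 54.5 and 45.6 CPM in cycling cells, against 49.2 and 79.1 CPM in non-cycling cells (log2 fold change -0.39 ± 0.19 SE, edgeR adjusted p = 0.152). Notch1 had 424 and 311 CPM against 495 and 547 CPM (log2 fold change -0.52 ± 0.14 SE, edgeR adjusted p = 0.0143), and its call ended under 8 of its alternatives, among them comparators matched by depth, shared barcodes left out and the fit without the replicate block. UMIs of these genes may come from the mouse's own gene or from the transgene, which cannot be told apart in these counts. Of 15 tested Notch-responsive genes 7 were lower and none was higher (median -0.38), among them Hes5, a repressor of neural differentiation, with 14.8 and 8.09 CPM against 85.5 and 11.7 CPM, and Lfng, a glycosyltransferase that tunes Notch receptors. Without the supporting cell-like cluster 2 of the 15 were lower, and the values of Hes5 and Lfng turned to log2 fold changes of 0.64 and 0.21.

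Genes of ribosome production and nucleotide supply were higher. Of 40 MYC-responsive growth genes 33 were higher and none was lower, with a median log2 fold change of 0.71. Srm, the spermidine synthase, had 94.9 and 132 CPM in cycling cells, against 34.8 and 58.5 CPM in non-cycling cells (log2 fold change 1.29 ± 0.15 SE, edgeR adjusted p = 1.35e-05). Nolc1 and Nop58, both nucleolar proteins, had 199 and 260 CPM against 81.1 and 134 CPM and 321 and 380 CPM against 140 and 205 CPM. The 31 ribosomal protein genes gave no call (median 0.03). Of 27 nucleotide synthesis genes 22 were higher and none was lower (median 0.81). Dtymk, the thymidylate kinase, had 172 and 198 CPM against 46.3 and 52.2 CPM (log2 fold change 1.91 ± 0.14 SE, edgeR adjusted p = 9.08e-08). Shmt1, which supplies one-carbon units for thymidylate, had 30.8 and 41.1 CPM against 5.79 and 5.07 CPM, and Gart, a purine synthesis enzyme, 58.9 and 73.2 CPM against 21.0 and 30.0 CPM.

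Fewer of these rises were called when the cells compared were matched. With non-cycling cells matched to cycling cells of like depth, 32 and 74 pairs, 23 of the 40 growth genes and 15 of the 27 nucleotide genes were called. With pairs matched by cluster and depth, 12 and 43 pairs, 0 of 40 and 2 of 27 were called, and the medians were 0.20 and 0.32. Among all 9273 genes tested in these pairs 255 were called higher and 96 lower, so 0 of 40 stands close to that background. In the same pairs 54 of 66 S phase genes and 104 of 133 G2 and mitosis genes were called. Fewer cells enter these fits. The clusters led by Hist1h1b and by Pclaf held 99 and 88 cycling cells over both Dox libraries, but 0 and 1 non-cycling cells. Matching by cluster therefore leaves out almost all of those cycling cells. How much of the drop comes from either was not tested.

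Lipid and amino acid supply moved in part. Of 25 sterol and fatty acid synthesis genes 13 were higher and 1 was lower. Fdps, an enzyme of the mevalonate pathway, had 87.8 and 89.3 CPM in cycling cells against 37.6 and 42.9 CPM in non-cycling cells. Scd1, a fatty acid desaturase, was the member that fell, with 45.8 and 28.6 CPM against 145 and 68.2 CPM. In the ATF4 and amino acid list 6 of 19 were higher and 4 lower, the rises including the serine synthesis enzymes Phgdh (94.1 and 136 CPM against 44.2 and 61.6 CPM) and Psat1, and the falls including the stress gene Nupr1 (204 and 197 CPM against 374 and 467 CPM). With comparators matched by cluster and depth the calls of Fdps, Scd1, Phgdh and Psat1 ended (edgeR adjusted p = 0.294, 0.416, 0.146 and 0.642). That of Fdps also ended after thinning (0.0729), and those of Scd1 (0.0612) and Psat1 (0.0556) without the replicate block. Of 18 glycolysis genes 2 were higher and 3 lower, and of 25 oxidative phosphorylation genes 1 was higher, Cycs (cytochrome c). Ezh2, the enzyme of the Polycomb complex that also stands on a cycle list, had 122 and 140 CPM against 29.7 and 29.2 CPM, and 8 of 23 chromatin genes were higher against 1 lower.

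**Figure D4:**
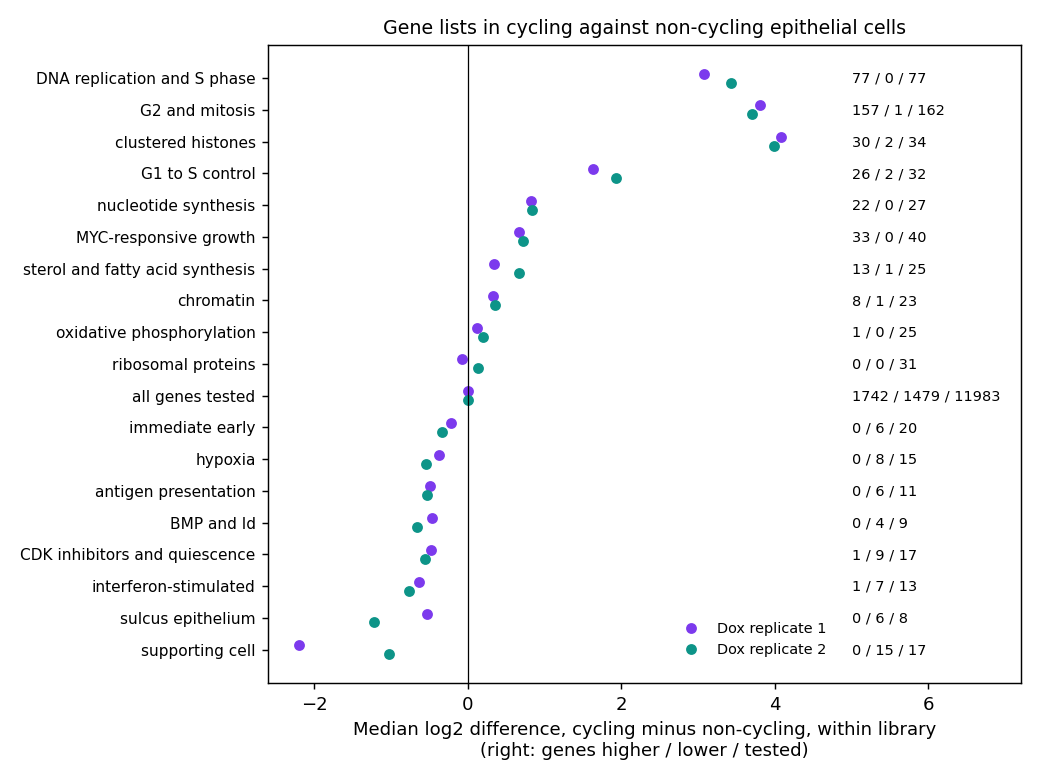
Median log2 difference of each gene list, cycling minus non-cycling cells, within each Dox library, with the numbers of genes called higher and lower and of genes tested at the right. The cell cycle lists lie between 1.63 and 4.09, nucleotide synthesis and MYC-responsive growth between 0.66 and 0.84, and the supporting cell markers at -2.20 and -1.03.

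Supporting cell markers were lower in the cycling cells. Of 17 tested markers 15 were called lower and none higher, and the median log2 fold change was -1.71 (-2.20 and -1.03 within the libraries). Sox2 (chr3:34650405-34652461, GRCm38), a transcription factor of supporting cells and their progenitors, had 21.4 and 7.04 CPM in cycling cells, against 147 and 28.5 CPM in non-cycling cells (log2 fold change -2.45 ± 0.20 SE, edgeR adjusted p = 2.30e-07). S100a1, a calcium-binding protein, had 836 and 376 CPM against 3781 and 1478 CPM, and Gjb6, a connexin of cochlear gap junctions, 8.07 and 1.72 CPM against 81.8 and 16 CPM. For each of the 3 genes both cycling sums lay below both non-cycling sums, a separation that 60.9% of tested genes had in 1 direction or the other. The non-cycling level was higher in Dox replicate 1 than in Dox replicate 2, as was the share of supporting cell-like cells. When that cluster was left out of both states, 5 of 15 tested markers were called lower (median -1.08), and Sox2 and Gjb6 were no longer called. Without the replicate block the calls of S100a1 (edgeR adjusted p = 0.0554), Sox2 (0.0952) and Gjb6 (0.0725) ended. With comparators matched by cluster and depth, 1 of 11 was lower and 1 higher (median -0.07). Of 8 sulcus epithelium markers 6 were lower (median -0.88), and Aqp4, a water channel, had 20.5 and 12.5 CPM against 75.3 and 41.3 CPM. With comparators matched by cluster and depth 1 of the 8 was lower, and without the replicate block 1 was. Of 7 tested Reissner epithelium markers 2 were lower and 5 were not called (median -0.36). Vmo1, 1 of the 2 and the leading gene of 1 Reissner-marked cluster, had 251 and 408 CPM against 854 and 1507 CPM. It stayed called in each of the 24 alternatives that gave it a value.

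Interferon, antigen presentation and stress genes were lower on balance. Of 13 interferon-stimulated genes 7 were lower and 1, the chemokine gene Cxcl10, was higher (median -0.86). Isg15, a ubiquitin-like protein induced by interferon, had 15.3 and 5.87 CPM in cycling cells, against 146 and 44.0 CPM in non-cycling cells (log2 fold change -3.09 ± 0.18 SE, edgeR adjusted p = 5.14e-09), and the call held in each of 24 alternatives. Of 11 antigen presentation genes 6 were lower, among them B2m, the light chain of class I molecules, with 112 and 104 CPM against 179 and 160 CPM. The heat shock list was divided, with 6 of 13 lower and 3 higher. Hspb1, a small heat shock protein, had 124 and 210 CPM against 357 and 794 CPM, and Cryab, a related chaperone, had 103 and 144 CPM against 287 and 497 CPM. Hsp90aa1, the cytosolic HSP90, rose, with 1054 and 1126 CPM against 666 and 741 CPM. Of 15 hypoxia-responsive genes 8 were lower and none higher (median -0.47), and of 20 immediate early genes 6 were lower. The p53 targets gave 6 lower and 2 higher of 22, of which Gtse1, higher, also stands on a cycle list. Cdkn1a, which encodes the CDK inhibitor p21, had 215 and 252 CPM against 248 and 499 CPM, a fall carried by Dox replicate 2, and its call ended without the cells of little Malat1. With comparators matched by cluster and depth none of 11 antigen presentation genes and none of 14 hypoxia genes was called, 2 of 9 interferon-stimulated genes were lower, and 1 of 20 immediate early genes was. Among all 9273 genes of that fit 96 were called lower, so the lists with no call stand close to that background. Without the replicate block 1 antigen presentation, 3 hypoxia, 2 interferon-stimulated and 0 immediate early genes were called lower.

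**Figure D5:**
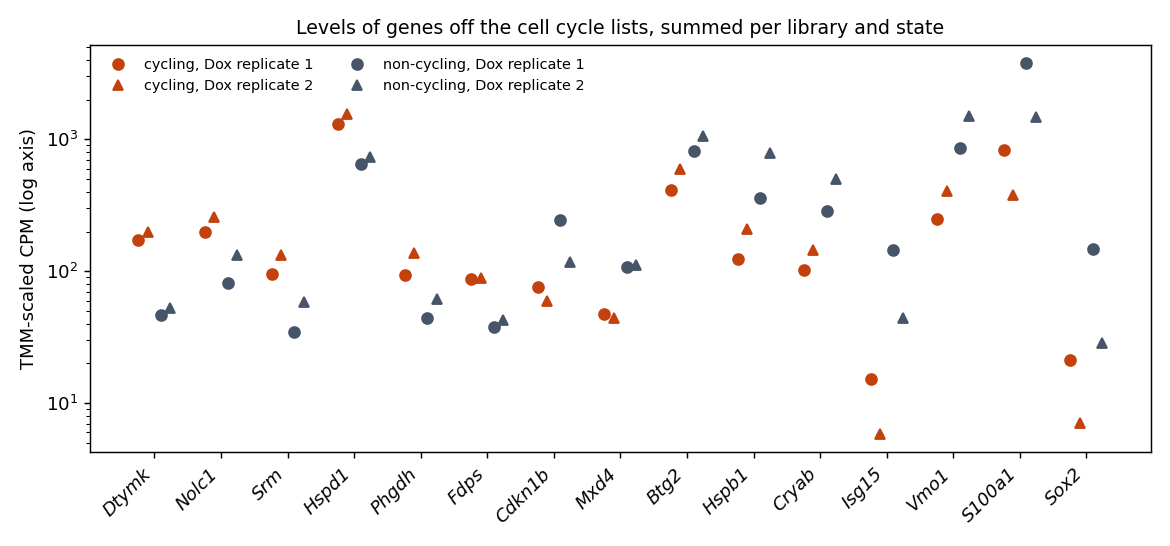
TMM-scaled CPM on a log axis of 15 genes off the cell cycle lists, 1 point per library and state. Within each library the genes from Dtymk to Fdps are higher in cycling cells and those from Cdkn1b to Sox2 are lower, and S100a1 and Sox2 differ between the libraries as well as between the states.

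Signalling, adhesion and antioxidant lists held mostly falls among their calls. Of 16 ERK feedback genes 6 were lower and 1 higher, and Spry2, a feedback inhibitor of receptor signalling, had 13.7 and 14.8 CPM in cycling cells against 60.1 and 25.7 CPM in non-cycling cells. Without the supporting cell-like cluster 1 of 15 tested ERK feedback genes was lower and 2 were higher. Of 13 YAP targets 4 were lower and 1 higher, and of 14 TGF-beta and wound genes 5 were lower and 1 higher. The BMP and Id list gave 4 lower of 9 and none higher, with Id1, an inhibitor of differentiation, at 184 and 166 CPM against 314 and 263 CPM. In the otic progenitor list 7 of 16 were lower and none higher, a list that shares Sox2 with the supporting cell markers and Jag1 with the Notch-responsive genes, and without the supporting cell-like cluster 0 of 16 were lower. Of 19 junction genes 4 were lower and 1 higher, and Cldn9, a tight junction claudin of the cochlea, had 110 and 116 CPM against 221 and 206 CPM. Krt19, a keratin, had 242 and 195 CPM against 524 and 323 CPM, and 3 of 7 keratins were lower. Without the supporting cell-like cluster 1 of 7 keratins was lower and the call of Krt19 ended (edgeR adjusted p = 0.123). Of 17 NRF2 and glutathione genes 6 were lower and 3 higher, with the glutathione transferase Gsta4 at 114 and 84.5 CPM against 282 and 162 CPM. Lcn2, an antimicrobial iron-binding protein, was abundant in both states, at 2584 and 4331 CPM against 4671 and 10910 CPM, and its list gave 2 lower and 3 higher of 10. The log2 difference of Lcn2 was -1.09 and turned to 0.21 without cells holding defining markers of other types (edgeR adjusted p = 0.885), and its call ended without the replicate block (0.127) and in the fit on 8 sums (0.0758). Of 16 apoptosis genes 2 were lower and 1 higher, of 8 Wnt targets 2 were lower and 1 higher, and of 13 mitochondrially encoded genes 1 was lower. Of 8 fetal growth genes and of 4 hair cell genes 1 each was higher. The calls of Id1 and Cldn9 ended with comparators matched by cluster and depth, and that of Gsta4 without the replicate block (edgeR adjusted p = 0.0540). That of Id1 also ended with comparators matched by depth (0.1235) and matched by depth without little Malat1 (0.1486). Id1 and Id3 stand on the Notch-responsive list too. These shares stand against 12.3% lower and 14.5% higher among all tested genes.

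The largest changes off the cycle lists included genes that the lists had missed. All 12 of the largest rises there had no UMI in non-cycling cells, since a fitted fold against 0 ranks first. None of the 12 was called by the DESeq2 Wald test (adjusted p = 0.291 for Fignl1 to 0.554 for Lrr1). Several are known from DNA repair or division: Fignl1, a recombination factor, had 568 UMIs in cycling cells and was at least 27.0-fold higher, Polq, a repair polymerase, had 220 UMIs (at least 10.4-fold), Nsl1, a kinetochore subunit, 252 UMIs (at least 12-fold), and Lrr1, which takes the replication machinery off DNA, 158 UMIs (at least 7.5-fold). Hist1h2bn and Hist1h2bb are histone genes, and Ankle1 encodes a nuclease. Mns1, a protein of ciliary axonemes, had 277 UMIs and was at least 13.1-fold higher. Nr1h5, Efcab11, Cdkn2c and the chemokine gene Cxcl2 complete the group, and Cxcl2 stood at 2.73 and 11.1 CPM in cycling cells.

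The 12 largest falls were Fabp3, Rbp7, Hspa1a, Meg3, Orm2, Sall1, Bace2, Ifi205, Fabp7, Hspa1b, Abat and Slitrk6. Fabp7, a fatty acid binding protein, had 27.8 and 3.60 CPM in cycling cells against 217 and 77.2 CPM in non-cycling cells. Orm2, an acute phase protein, had 16.4 and 20.8 CPM against 429 and 207 CPM. Fabp3, another fatty acid binding protein, had 0.327 and 0.222 CPM against 42.0 and 6.24 CPM, and Meg3, a long noncoding RNA, 0.436 and 0.776 CPM against 20.3 and 11.7 CPM. Hspa1a had 3.71 and 1.88 CPM against 7.24 and 292 CPM, and Hspa1b 8.51 and 5.32 CPM against 15.2 and 140 CPM. These are nearly identical heat shock genes whose reads may be split between them, and of the 4 sums that of the non-cycling cells of Dox replicate 2 alone was high. With robust estimation of the spread the calls of Orm2, Fabp7 and Hspa1b ended, and with the robust legacy fit those of Rbp7 and Hspa1a ended too. Without the replicate block those of Fabp7, Sall1 and Slitrk6 ended. Fabp7, Rbp7, Sall1 and Slitrk6 were also among the 25 leading genes of the supporting cell-like cluster, which made up more of the non-cycling cells. With comparators weighted by cluster Sall1 had a log2 fold change of -0.26 (edgeR adjusted p = 0.898). Matching by cluster and depth ended the calls of Fabp7 (0.3205), Slitrk6 (0.197) and Hspa1b (0.0836). That of Rbp7 ended under neither, where it had a value.

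Cells with 1 or 2 of the 5 genes, which no test used, had intermediate levels for many of these genes. Of the 1447 genes called higher on no cycle list, 67.7% lay between the states in both libraries, and of the 1479 called lower 54.8% did. Among all tested genes, which include the called ones, the share was 28.5%. Called genes were chosen for a gap between the same sums, which leaves more room for a value between them. The higher shares are therefore a description and no separate finding. Dtymk had 75.1 and 81.5 CPM before scaling in these cells, against 175 and 193 CPM in cycling and 45.2 and 53.5 CPM in non-cycling cells. Cdkn1b had 182 and 84.0 CPM, between 76.7 and 57.7 CPM in cycling cells and 237 and 120 CPM in non-cycling cells. Vmo1 was not between in Dox replicate 1, where it had 211 CPM, against 255 CPM in cycling and 833 CPM in non-cycling cells.

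Depth, RNA quality and other cell types moved with the states. Cycling cells had medians of 72950 and 53870 UMIs and 7923 and 7063 genes, against 29350 and 29250 UMIs and 5505 and 5466 genes in non-cycling cells. With all cells thinned to 5000 UMIs, 1104 of 6264 testable genes were called, of which 999 were called in the same direction at full depth. With comparators matched by depth 1869 of 10324 genes were called, 1716 of them as before. Little Malat1 was found in 3 of 104 and 2 of 283 cycling cells, against 16 of 41 and 13 of 83 non-cycling cells, and without them 2979 genes were called, 2876 as before. Without shared barcodes 3144 genes were called, 2796 as before. Cells were not screened by a doublet caller, and without the deepest 10% of cells 3472 genes were called, 3041 as before.

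Markers of other cell types were low in both states. The 13 macrophage markers summed to 17.6 and 27.3 CPM before scaling in cycling cells, against 9.88 and 18 CPM in non-cycling cells, with Csf1r, Cx3cr1 and Adgre1 at 0 in the cycling cells of Dox replicate 1 and no marker at 0 in those of Dox replicate 2. The 11 fibroblast markers summed to 73.2 and 53.6 CPM against 112 and 138 CPM, and the 9 endothelial markers to 38.5 and 39.3 CPM against 22.6 and 67.1 CPM. The 11 glia markers, of which epithelial cells also express Sox10 and Erbb3, summed to 189 and 147 CPM against 186 and 197 CPM. With every cell left out that had 3 UMIs of another type's markers, 2 and 18 cycling and 13 and 17 non-cycling cells remained, and edgeR made no call (0 of 3081 genes, 353 at an unadjusted p under 0.05, 17 by DESeq2). With only the defining markers used, 20 and 110 cycling and 21 and 41 non-cycling cells remained and 1044 genes were called, 980 as before.

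Lastly, the difference between the states was compared with that in Epcam-negative cells of the same libraries, 39 and 68 cycling against 70 and 76 non-cycling cells. Of 12007 genes tested for the difference between these differences, 258 passed (2.15%), 204 with a more positive value in epithelial cells (1.70%) and 54 with a more negative one (0.450%). After thinning to 5000 UMIs the balance turned, with 33 more positive and 88 more negative among 6627 genes tested, and 38 of these 121 calls were also made at full depth. Cryab had 104 and 145 CPM in cycling epithelial cells against 290 and 504 CPM in non-cycling epithelial cells, and 9.11 and 8.86 CPM in cycling Epcam-negative cells against 785 and 1102 CPM in non-cycling ones (log2 difference 5.08 ± 0.24 SE, edgeR adjusted p = 0.000433). Isg15 had 67.6 and 19 CPM in cycling Epcam-negative cells against 103 and 19.2 CPM in non-cycling ones, so its fall was larger in epithelial cells (log2 difference -2.70 ± 0.28 SE, edgeR adjusted p = 0.00657). Sox2 and Cdkn1b did not pass this test (edgeR adjusted p = 0.0945 and 0.162). Epcam-negative cells are a mixture of types, and which of them sets each difference was not tested.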

How the data were processed

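Single-cell RNA libraries (10x Genomics 3' version 3.1, per the labels' protocols) were analysed from the filtered count matrices that the authors deposited (UMIs, not normalized), with 31053 genes in each of 3 libraries. Cell Ranger 5.0, STAR, Seurat 3.2.2 and the build mm10 (GRCm38) are named in the submitters' processing notes, whereas the file headers carry version 3.1.0. What each tool did, and the treatment of introns, is not stated there.

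Cells were chosen and grouped as the report states. Counts were summed per library and state and tested with edgeR 4.0.16 (R 4.3.3), quasi-likelihood, TMM, filterByExpr, Benjamini-Hochberg adjustment, with the library as a block and 1 residual degree of freedom. The difference between epithelial and Epcam-negative cells was tested on 8 sums with 2 residual degrees of freedom. Depth was 5072 to 316630 UMIs per Dox cell compared. The states of a library share that library, which pairs them, so the block is part of the design and the fit without it is an alternative. Clusters came from 2000 variable genes, 20 principal components and 15 neighbours (leidenalg 0.10.2, igraph 0.11.9, scikit-learn 1.9.0, Python 3.11.15), without the cycle lists. A cluster took a cell type's name where at least 3 of its markers were among the 25 leading genes. Thinning drew 5000 UMIs per cell at random. Depth matching allowed a 1.5-fold gap. Little Malat1 means under 0.1% of UMIs. No doublet caller was run. The steps were tested on simulated counts.

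Named genes were the 5 criterion genes, the 6 largest called rises on the cycle lists, the 12 largest off them and the 12 largest falls (at least 50 UMIs, both libraries in the same direction), up to 4 per list by smallest p, the 3 largest differences of each sign from Epcam-negative cells, and Myc, Notch1, Epcam, Sox2 and Cdkn1b. Clone names, pseudogenes and mitochondrial genes were left out, and some genes that the rule names are not reported here. Some genes given as examples of a list, and the epithelial genes Krt8 and Cdh1, were added after their values were seen. The members, lists and tests were chosen with earlier results of these data known. Alternatives covered scaling (DESeq2 size factors, total count), filters, DESeq2 1.42.0, other thresholds, thinning, matching by depth and by cluster, and cells left out. Those on shared barcodes, Malat1, cluster weights, the supporting cell-like cluster, defining markers and robust spread were chosen after the data were seen. Promoters came from RefSeq (GRCm38.p6) and gene positions from GENCODE M21 of GRCm38.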

Additional observations from a re-analysis of the deposited data

Results flagged for a closer look

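Named genes whose difference between cycling and non-cycling cells itself differed between epithelial and Epcam-negative cells (edgeR quasi-likelihood test of the difference, adjusted over 12007 genes) are given here as log2 differences, with TMM-scaled CPM in the order Dox replicate 1, Dox replicate 2. Where a sum is 0 the fitted value depends on the prior count and is no bound. Cryab differed by 5.08 (adjusted p = 0.000433), Isg15 by -2.70 (0.00657) and Oasl2, an interferon-induced gene, by -1.89 (0.0303), with Oasl2 at 16.1 and 8.89 CPM in cycling against 40.3 and 19.8 CPM in non-cycling epithelial cells and 42.2 and 21.5 CPM against 29.2 and 12.1 CPM in Epcam-negative cells. Cdkn1a differed by 1.57 (0.038), at 217 and 255 CPM against 251 and 505 CPM in epithelial cells and 206 and 158 CPM against 793 and 845 CPM in Epcam-negative cells.

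Anxa1, an annexin, differed by 2.34 (0.025), at 12 and 134 CPM in cycling against 2.20 and 17.4 CPM in non-cycling epithelial cells, and 35.9 and 169 CPM against 34.8 and 91.4 CPM in Epcam-negative cells. Espn, an actin-bundling protein of hair bundles, differed by 2.85 (0.0494), with 0.958 and 1.27 CPM against 5.05 and 5.75 CPM in Epcam-negative cells. Meg3 differed by -2.20 (0.0468), with 153 and 103 CPM against 613 and 592 CPM in Epcam-negative cells. Col2a1, a cartilage collagen, differed by -5.16 (0.0101), at 3.86 and 3.80 CPM against 3.66 and 3.55 CPM in epithelial cells and 76.2 and 84.2 CPM against 2.80 and 1.28 CPM in Epcam-negative cells.

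The remaining values rest on a sum at or near 0. Isl1, an otic transcription factor, differed by 7.54 (0.0303), with 0 and 0 CPM in cycling against 14 and 10.2 CPM in non-cycling Epcam-negative cells. Cxcl2 differed by 8.36 (0.041), with 0 CPM in non-cycling epithelial cells of both libraries. The neuronal genes Nefm (15.98, 0.00411) and Ina (15.08, 0.038) were at 0 in cycling Epcam-negative cells of both libraries, against 56.1 and 259 CPM of Nefm in non-cycling ones. Abi3bp differed by -6.11 (0.0332), with 0.221 and 0.168 CPM in cycling against 2.93 and 15.8 CPM in non-cycling epithelial cells, and Lockd, a noncoding RNA, by -5.25 (0.0102), with 66.4 and 38.4 CPM against 50.6 and 30.8 CPM. The mix of cell types among Epcam-negative cells differs between the states in ways that were not tested.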

How the results depend on the processing

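The count of genes called between cycling and non-cycling epithelial cells (3221) moved by over 1.5 times under 9 alternatives: 1063 with the DESeq2 Wald test, 1133 without the replicate block, 1921 in the fit on 8 sums, 1104 after thinning to 5000 UMIs, 1869 with comparators matched by depth, 1467 matched by depth without little Malat1, 351 matched by cluster and depth, 1044 without cells holding defining markers of other types, and 0 without cells holding any such markers (353 at an unadjusted p under 0.05, 17 with DESeq2). Under the other alternatives it lay between 2178 and 3472. The 258 differences from Epcam-negative cells became 121 after thinning, of which 27.3% were positive (79.1% at full depth), and 76 without the low-count filter. DESeq2's size factors gave 279, 69.2% of them positive. The no-filter fit of the states gave 67.8% rises, against 54.1% in the reported fit, the fit without the block 71.8%, and DESeq2 61.2%. The fit could not be made with 1 Dox library left out, since no residual degree of freedom remains, and single genes were not computed where a sum held under 10 cells.

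The cycling share moved with the criteria. In Dox replicate 1 it was 24.3% after thinning, 65.2% with at least 2 of the genes, 49.7% with at least 4 and 45.8% without shared barcodes. In Dox replicate 2 it was 28.8%, 69.8% and 51.0% under the first 3 of these, and in the control 0% without shared barcodes. In the supporting cell-like cluster it was 0% in both Dox libraries after thinning and 0% in Dox replicate 2 with at least 4 genes.

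Of 99 named genes that were called, 29 kept their call in every alternative that gave them a value. Values turned sign for Mxi1 (0.068) and Anxa1 (-0.77) with matching by cluster and depth, for Ceacam16 (0.27) without the supporting cell-like cluster, for Lcn2 (0.21) without defining markers, for Hes5 (0.50, 0.32 and 0.64) and for Lfng (0.73, 0.018 and 0.21), both with matching by cluster and depth, with cluster weights and without the supporting cell-like cluster, in that order. The list medians that turned were those of Notch-responsive genes (0.0040, cluster and depth), ERK feedback (0.053, cluster weights) and interdental or spiral prominence markers (0.021, supporting cell-like cluster left out). The causes were not tested. Matching leaves fewer cells, and matching by cluster also leaves out almost all cycling cells of the clusters led by Hist1h1b and by Pclaf.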
